A study of Rattus norvegicus with 12 samples.

Results

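The 218 transcripts described here were higher in the spinal cord of every rat with a ligated sciatic nerve than in every sham-operated rat. They were chosen by their own measured levels in all 12 libraries. A transcript was kept if its mean over the 12 libraries was at least 1 CPM (the count per 1000000 counts of its library), if the lowest of the 8 ligated libraries lay above the highest of the 4 sham libraries, and if the ligated mean was at least 1.5 times the sham mean. Of 41078 transcripts listed, 17937 reached the minimum level, 492 of these were separated upward, and 218 also reached the 1.5-fold difference (0.531% of all listed and 1.22% of those at the minimum level). The mirrored rule, for lower levels after ligation, gave 6 transcripts.

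The RNA came from the lumbar cord (segments L4 to L6) of wild-type rats on postoperative day 10, with 4 rats, and 1 library from each rat, per group. Sham rats had the sciatic nerve exposed and left unligated. CCI rats had the nerve ligated. CCI+THP rats had the ligation and were given THP, which is levo-tetrahydropalmatine by the series title; its dose and route are not stated in the labels. Strain, sex, age and the side of the cord taken are likewise not stated, and all 3 groups had surgery, so no unoperated cord enters any comparison.

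Ligation of the sciatic nerve in the rat is a standard model of neuropathic pain. The injured sensory fibres end in the dorsal horn of the lumbar cord and the injured motor axons arise from neurons of its ventral horn, and microglia and astrocytes in both are known to react to such an injury. Levo-tetrahydropalmatine is a plant alkaloid with a known analgesic action. The series title names the Clec7a receptor, MAPK and NF-κB signalling and the NLRP3 inflammasome, all parts of innate immune signalling. Which of the 218 transcripts belong to these pathways or cells could not be read here. The files give Ensembl transcript identifiers without gene names, and 0 of the 41078 identifiers matched the RefSeq table used. The members are therefore described by their levels, no sequence is printed, and the cord and its cell types were not checked against marker genes. In bulk tissue, more cells of a type and more RNA per cell cannot be told apart.

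Library totals ran from 82926469 to 110833759 estimated counts, and the scaling factors of edgeR (TMM) from 0.975 to 1.02. The share of counts that fell on the 218 members was 0.191 ± 0.0171% for Sham rats, 0.371 ± 0.0457% for CCI rats and 0.377 ± 0.0248% for CCI+THP rats (mean ± SD, n = 4 each). The lowest ligated library was at 0.317% and the highest sham library at 0.214%. These shares describe the choice of members and are no test of it.

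Most members differed moderately and a few by a large factor. The ligated mean was between 1.5 and 2 times the sham mean in 149 members, between 2 and 4 times in 59 and at least 4 times in 10, with a median ratio of 1.81 (quartiles 1.63 and 2.23). Mean levels ran from 1.02 to 290.7 CPM with a median of 5.97 CPM, against 15.9 CPM for all 17937 transcripts at the minimum level. There were 53 members under 3 CPM, 98 between 3 and 10 CPM and 67 at 10 CPM or more. CPM is not divided by transcript length, so an order of CPM among members is an order of counts. The 10 members with the highest mean CPM held 37.1% of the members' counts, and their ratios ran from 1.58 to 3.48.

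**Figure D1:**
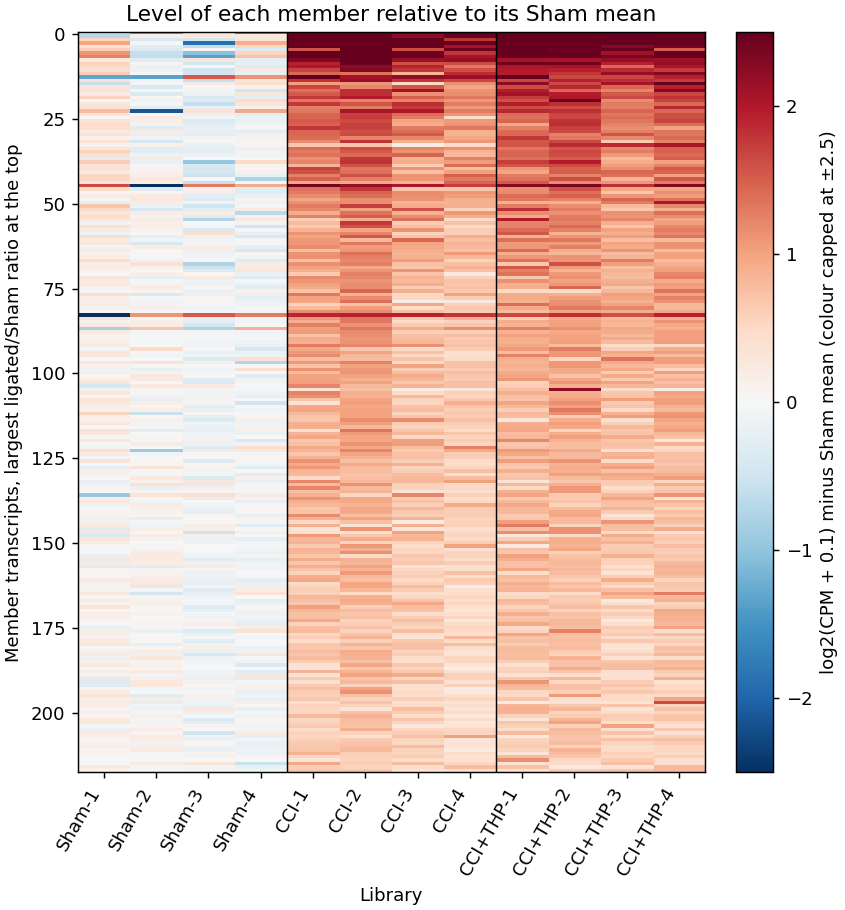
Each row is 1 of the 218 members, ordered by the ratio of the ligated to the sham mean, and each column is 1 library. Colour is log2(CPM + 0.1) minus the member's own Sham mean, capped at 2.5 either way; the CCI and CCI+THP columns are red throughout, and the darkest blue cells in the Sham columns are members listed at 0 in 1 Sham library.

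The member with the largest ratio was ENSRNOT00000005085.3. It was at 0.444, 0.163, 0.471 and 1.53 CPM in Sham replicates 1 to 4, at 10.8, 13.8, 6.82 and 5.20 CPM in CCI, and at 10.3, 10.6, 8.62 and 11.3 CPM in CCI+THP. Sham replicate 4 was the highest of its group and still 3.41-fold below the lowest ligated library, CCI replicate 4. The ratio of the ligated to the sham mean was 14.9.

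ENSRNOT00000091552.1 had the next largest ratio, 14.5. Its Sham levels were 0.0911, 0.25, 0.270 and 0.275 CPM, its CCI levels 3.12, 5.09, 1.37 and 2.25 CPM, and its CCI+THP levels 3.17, 4.66, 2.22 and 3.75 CPM. CCI replicate 3 was the lowest ligated library for this transcript and 4.98-fold above the highest Sham library, the widest gap among the members. The other members with a ratio of at least 4 had ratios from 4.24 to 12.3, and the 10 together had mean levels from 1.02 to 12.2 CPM, so the largest ratios were found among members with low to moderate counts.

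The member with the highest CPM was at 181, 110.0, 120.0 and 143 CPM in Sham, at 472, 443, 334 and 337 CPM in CCI, and at 326, 444, 304 and 274 CPM in CCI+THP. It was 2.65 times higher in the ligated libraries, and Sham replicate 1 and CCI replicate 1 were the highest of their groups. The fourth member in CPM had the largest ratio among the top 10 by CPM, 3.48. Its levels were 46.5, 35.7, 25.1 and 47.0 CPM in Sham, 132, 169, 129 and 119 CPM in CCI, and 119, 144, 135 and 125 CPM in CCI+THP. For this transcript every ligated library was at least 2.53-fold above every Sham library, and CCI replicate 2 was the highest of all.

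The rule placed some members just inside its limits. The lowest ligated library was less than 1.1 times the highest Sham library in 56 members, at least 1.5 times in 38 and at least 2 times in 10. The member nearest the separation limit had its lowest ligated library at 5.163 CPM and its highest Sham library at 5.145 CPM, and the nearest transcript outside had 2.704 and 2.705 CPM. Near the fold limit, the ratios of the last members inside were 1.501, 1.504 and 1.506, and those of the first outside 1.499, 1.498 and 1.497. Another 274 transcripts were separated upward with a smaller ratio, and 528 reached a ratio of 1.5 without being separated. The number of members was 216 to 270 when any 1 library was left out of the rule.

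Each of 3 members was listed at 0 in 1 Sham library while the other Sham libraries held it. One had the 84th largest ratio and was at 0 in Sham replicate 1, at 3.18 to 4.30 CPM in the other Sham libraries and at 4.54 to 5.77 CPM in the ligated ones. Its ratio of 1.92 became 1.44 without that library, below the 1.5-fold limit. Another was at 0 in Sham replicate 2 and at 2.70 to 4.54 CPM in the other Sham libraries, and its ratio moved from 2.40 to 1.80. The last was also at 0 in Sham replicate 2 and at 0.471 to 0.763 CPM in the rest, and its ratio moved from 2.78 to 2.09. How counts were divided among the isoforms of a gene is not stated in the labels, and its part in these zeros was not tested.

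In edgeR's quasi-likelihood fit over all 12 libraries and 24037 transcripts, which held all 218 members, 97 members were called higher in CCI than in Sham and 135 in CCI+THP than in Sham (Benjamini-Hochberg adjusted p under 0.05). Over all transcripts tested, 0.582% and 0.928% were called higher in these comparisons. DESeq2 called 191 and 203 members, and 2.71% and 3.54% of all transcripts in either direction. The members were chosen on the same contrasts, and both comparisons share the Sham libraries, so the counts describe the members and support nothing. Both calls were made for 92 members and neither for 78. The median log2 fold change of the members was 0.82 in CCI and 0.87 in CCI+THP, against -0.003 and -0.001 for all transcripts tested. Leaving out replicate 3 or 4 of Sham turned the 97 into 59 or 58, and leaving out replicate 1 or 2 of CCI turned it into 62 or 63. The 135 turned into 85 when replicate 4 of Sham was left out, and into 89 for replicate 2 of CCI+THP.

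The rule did not fix how far above Sham each animal lay, and the animals differed in this. The level of the members in a library was taken as the median over the 218 of log2(CPM + 0.1) minus the member's own Sham mean. It was 0.16, 0.03, -0.09 and -0.05 in Sham replicates 1 to 4, 0.91, 1.0, 0.74 and 0.63 in CCI, and 0.90, 0.97, 0.81 and 0.90 in CCI+THP. The group values were 0.01 ± 0.11 (Sham), 0.82 ± 0.17 (CCI) and 0.89 ± 0.06 (CCI+THP, all mean ± SD, n = 4). CCI replicate 2 was the highest and CCI replicate 4 the lowest of all ligated libraries, so the CCI libraries enclosed the whole range of CCI+THP. Over all 17937 transcripts at the minimum level, the same measure ran only from -0.02 to 0.05 over the 12 libraries.

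**Figure D2:**
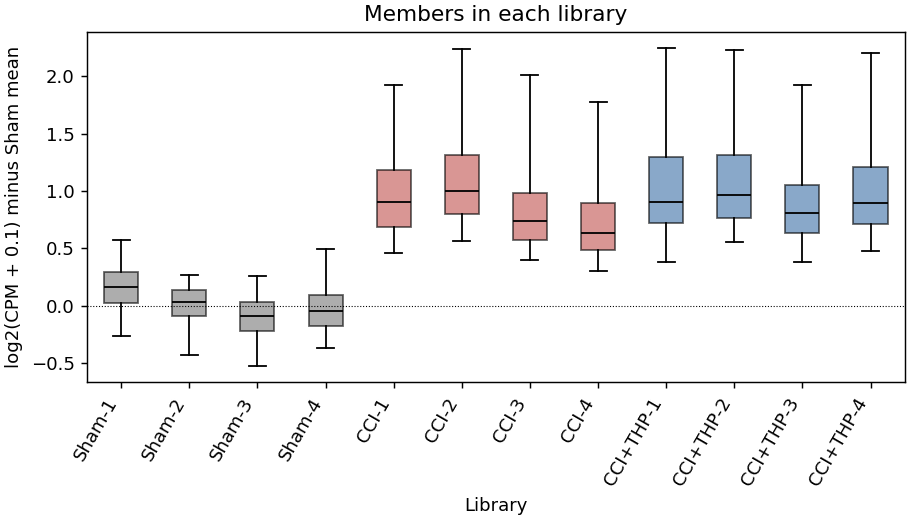
Boxes show the 218 members in each library, as log2(CPM + 0.1) minus each member's Sham mean, with the median as a line, the quartiles as the box and the 5th and 95th percentiles as whiskers. The CCI medians spread from 0.63 to 1.0 and the CCI+THP medians from 0.81 to 0.97.

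The same animals led and trailed across many members. CCI replicate 2 was the highest of the 8 ligated libraries in 73 members (33.5%), against 14.1% of all transcripts at the minimum level. CCI replicate 4 was the lowest in 93 members (42.7%), against 11.1%, and the highest in only 2 (0.917%, against 8.27%). CCI replicate 3 was the lowest in 47 members (21.6%, against 17.1%) and the highest in 6 (2.75%, against 22.5%). CCI+THP replicate 1 was the highest in 40 members (18.3%, against 11.3%) and CCI+THP replicate 2 in 42 (19.3%, against 7.96%). Among the Sham libraries, replicate 1 was the highest in 117 members (53.7%, against 29.6%) and replicate 3 the lowest in 83 (38.1%, against 27.7%). Members are not independent of each other, and isoforms of 1 gene may be among them, so these counts are given as a description.

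Of the ligated libraries, CCI replicate 2 led and CCI replicate 4 trailed most often in every band of ratio, with larger shares at larger ratios. The order differed somewhat over the bands of level. CCI replicate 4 was the lowest ligated library in 57 of the 149 members with ratios under 2 (38.3%), in 30 of the 59 with ratios of 2 to 4 (50.8%), and in 6 of the 10 with ratios of at least 4 (60%). CCI replicate 2 was the highest in 45, 21 and 7 of these (30.2%, 35.6% and 70%). By level, CCI replicate 4 was the lowest in 15 of 53 members under 3 CPM, where CCI replicate 3 was the lowest in 18, in 43 of 98 between 3 and 10 CPM, and in 35 of 67 at 10 CPM or more. The steps between animals were wider for the larger ratios. In the 10 members with ratios of at least 4, the median level was 2.13 in CCI replicate 4 and 3.23 in CCI replicate 2, against 0.55 and 0.87 in the 149 members with ratios under 2. The Sham libraries spread more in those 10 too, from -0.44 to 0.56, against -0.08 to 0.10 in the 149. Sham means of these 10 members ran from 0.208 to 3.86 CPM, and the part of low counts in their spread was not tested.

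CCI replicate 2 had the smallest library total, 82926469 counts, and CCI replicate 4 had 95302927. Their TMM factors were 1.02 and 0.995. With TMM-scaled CPM, CCI replicate 2 was the highest in 62 members and CCI replicate 4 the lowest in 82, and Sham replicate 1 was the highest Sham library in 108. The part of RNA quality, of the extent of the injury and of the tissue dissected in this order was not tested.

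**Figure D3:**
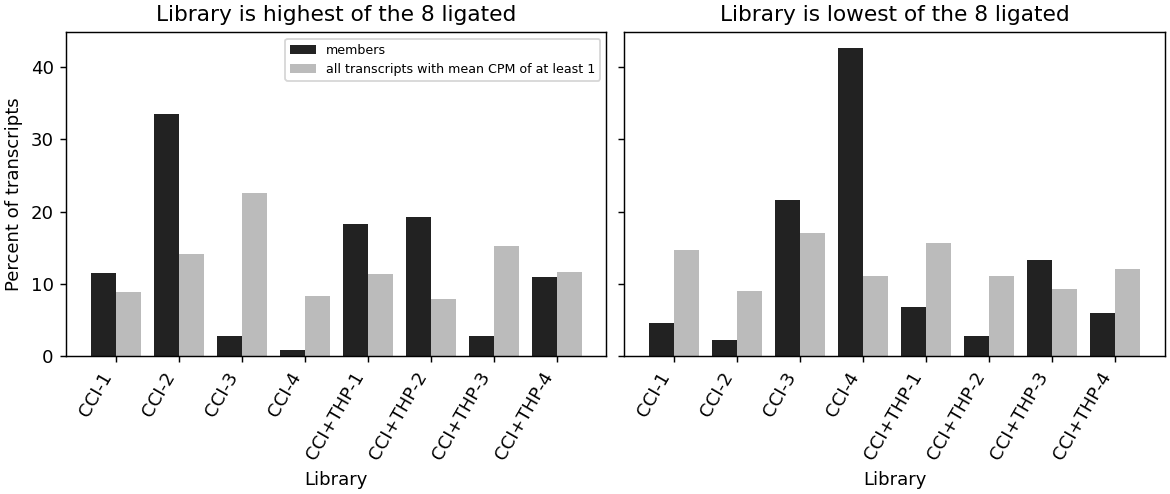
Bars give the percent of transcripts in which each ligated library was the highest (left) or the lowest (right) of the 8, for the 218 members in black and for all 17937 transcripts with a mean of at least 1 CPM in grey. CCI replicate 2 leads in 33.5% of the members and CCI replicate 4 trails in 42.7%.

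For members between 3 and 10 CPM the median coefficient of variation over the 4 rats was 16.4% (Sham), 17.3% (CCI) and 13.4% (CCI+THP). For all 4151 transcripts in that band it was 12.8%, 14.6% and 13%. The band is set on the mean of all 12 libraries, and the median Sham level in it was 3.29 CPM for members and 5.46 CPM for all transcripts, so Sham counts were not alike. The rule also limits the spread a member can have, and the difference between these medians was not tested.

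Whether treatment altered these transcripts was read from CCI+THP against CCI. The contrast is not free of the rule, which set the 1.5-fold minimum on the mean of both groups together. The separation step also left out every transcript that fell to the highest Sham level or below in any treated rat. Transcripts back at Sham levels in treated rats could thus not be members, and the contrast cannot test for such a return. In 22 members the CCI mean alone was under 1.5 times the Sham mean, so they were chosen through CCI+THP, and all 22 were higher in CCI+THP than in CCI. In 9 members the CCI+THP mean alone was under it, and all 9 were lower in CCI+THP. The rule itself fixed the direction in both sets. Both groups reached it in the other 187. In this comparison 1 of the 218 members was called and it was higher in treated rats, while 0.0125% of all transcripts tested were called (3 of 24037, edgeR adjusted p under 0.05). The member called was among the 22 chosen through CCI+THP, and edgeR called none of the 187. The 187 were set apart after seeing the data, and a minimum on each group takes out members that differ between the groups. Those taken out held 2 of the 5 highest and 2 of the 5 lowest members in this contrast. The 187 are therefore not free of the contrast either. No member was called lower, and at an unadjusted p under 0.05 by edgeR 2 were lower and 10 higher. These 12 were 5.50% of the members, below the 6.96% of all transcripts tested. DESeq2 called 2 members, both higher (0.645% of all transcripts were called, in either direction), and limma voom called 1 (0.00416% of all transcripts were called). Both programs called the member that edgeR called, and the other call of DESeq2 was among the 187.

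The difference between treated and untreated ligated rats was small for most members. The log2 fold change had a median of 0.07 (quartiles -0.01 and 0.20), against 0.005 over all transcripts tested, and lay within 0.25 either way in 178 members. It was above 0 in 156 members (71.6%) and below in 62. Among the 187 members with both groups at the fold minimum it was above 0 in 134 and below in 53, with a median of 0.06. Among the 17890 transcripts tested that reached 1 CPM, 50.3% were above 0. This tilt moved with single rats of both groups. Without CCI replicate 4, the lowest ligated library, the median was 0.009, with 114 members above and 104 below 0. Leaving out replicate 1, 2 or 3 of CCI gave 0.10, 0.14 and 0.04, and leaving out replicate 2 or 3 of CCI+THP gave 0.03 and 0.12.

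The precision of the fit sets what this contrast could show. Spread was estimated over all 12 libraries, so scatter among Sham rats enters these intervals too. A member listed at 0 in Sham replicate 2 had an interval of -1.89 to 2.07. It was at 6.28 ± 1.26 CPM in CCI and 6.67 ± 1.05 CPM in CCI+THP (mean ± SD). The 95% interval of the log2 fold change reached a median of 0.37 to either side. It lay within 1.5-fold either way in 138 of the 218 members, left out a 1.5-fold lower level in treated rats in 189, and left out a 1.5-fold higher level in 152. Since the separation step kept out transcripts at Sham levels in treated rats, the 189 describe the members chosen and not all transcripts raised in CCI. Libraries of the 2 groups did not overlap in 3 members with higher levels in CCI+THP and in 2 with lower levels. These 5 are 2.29% of the members, against 4.06% of all transcripts tested (2.03% higher and 2.03% lower).

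**Figure D4:**
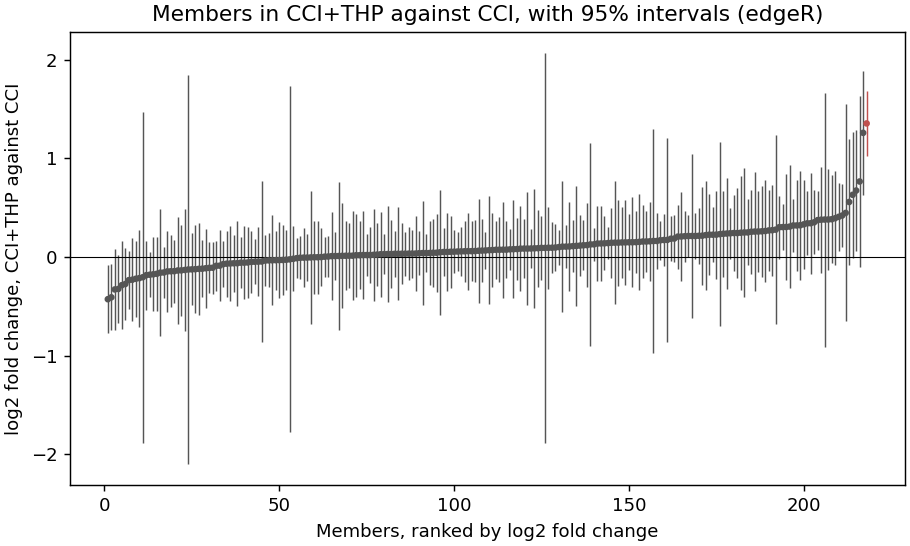
Points are the edgeR log2 fold changes of the 218 members in CCI+THP against CCI, ranked from the lowest to the highest, and lines are 95% intervals. The member called at an adjusted p under 0.05, at the far right, is in red, at a log2 fold change of 1.35.

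ENSRNOT00000025580.7 was the member called. Its level was 1.97, 1.96, 1.61 and 1.75 CPM in Sham replicates 1 to 4, 2.95, 3.01, 2.07 and 2.59 CPM in CCI, and 5.60, 6.91, 6.84 and 7.83 CPM in CCI+THP. All 4 treated rats lay above all 4 untreated ligated rats, and CCI replicate 3 lay only just above the highest Sham rat. The log2 fold change of CCI+THP against CCI was 1.35 ± 0.15 (SE, edgeR adjusted p = 0.0163), with a 95% interval of 1.02 to 1.68. Its mean was 1.46 times the Sham mean in CCI and 3.73 times in CCI+THP. It therefore met the 1.5-fold minimum only through the treated rats, and that choice favoured a high value in this contrast. With any 1 library left out its log2 fold change was 1.25 to 1.43, but the edgeR call depended on single rats. Leaving out any one of 7 rats ended the call, namely replicates 1 and 3 of Sham, 1 and 4 of CCI, and 2, 3 and 4 of CCI+THP (edgeR adjusted p from 0.0521 to 0.1). Sham rats enter this contrast only through the shared fit. Fitting the 8 ligated libraries alone ended the call too (edgeR adjusted p = 0.124). DESeq2 (adjusted p = 2.04e-14) and limma voom (adjusted p = 0.0269) called this member, and its choice through the treated rats bears on those calls as well.

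ENSRNOT00000005251.7 had the next largest difference. It was at 0.341, 0.532, 0.661 and 0.784 CPM in Sham, at 1.24, 1.29, 0.835 and 1.36 CPM in CCI, and at 3.02, 1.96, 2.64 and 3.70 CPM in CCI+THP. The 3 groups did not overlap, and each lay above the one before it. The rule itself placed both ligated groups above Sham, so only the place of CCI+THP above CCI was not set by it for this member. Its log2 fold change of 1.26 ± 0.29 (SE) against CCI did not pass (edgeR adjusted p = 0.434, and 0.358 to 0.841 over the other edgeR fits). DESeq2 called it (adjusted p = 0.00333) and limma voom did not (adjusted p = 0.381).

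The lowest values of the contrast belonged to members without a call. ENSRNOT00000025652.8 was at 2.05, 2.57, 2.93 and 2.08 CPM in Sham, at 5.60, 4.29, 4.33 and 4.95 CPM in CCI, and at 3.03, 3.88, 3.81 and 3.52 CPM in CCI+THP. All treated rats lay below all untreated ligated rats and above all sham rats, with a log2 fold change against CCI of -0.43 ± 0.16 (SE, edgeR adjusted p = 0.65). The CCI+THP mean of this member was under 1.5 times its Sham mean, so it was among the 9 members chosen through CCI. The rule therefore fixed both its lower level in treated rats and its place above Sham. ENSRNOT00000024069.3 was at 15.9, 13.5, 12.5 and 12 CPM in Sham, at 33.1, 31.2, 29.7 and 22.2 CPM in CCI, and at 26.4, 23.3, 18.5 and 19.0 CPM in CCI+THP. Here CCI replicate 4 fell among the treated rats, and the log2 fold change was -0.41 ± 0.15 (SE, edgeR adjusted p = 0.65). The 95% intervals were -0.78 to -0.08 and -0.74 to -0.07.

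**Figure D5:**
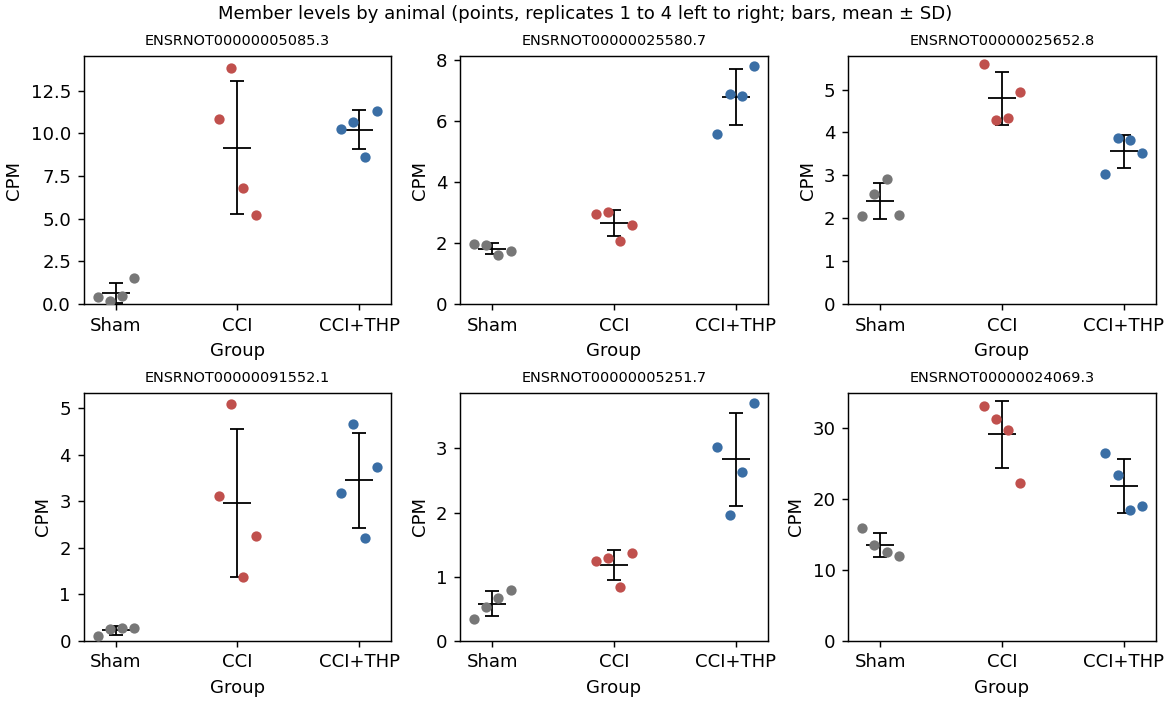
CPM by rat for the 6 members named by identifier: the pair with the largest ratio of ligated to Sham (left), and the pairs with the highest (middle) and lowest (right) log2 fold change of CCI+THP against CCI. Points are replicates 1 to 4 from left to right, and black bars are the mean ± SD (n = 4). In the middle column the treated rats lie above all others, and in the right column between Sham and most of CCI. The rule itself placed every ligated rat above Sham, and it fixed the direction against CCI for ENSRNOT00000025580.7 and ENSRNOT00000025652.8.

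The members with the largest ratios of ligated to Sham were not called between the ligated groups. ENSRNOT00000005085.3 had a log2 fold change of CCI+THP against CCI of 0.16 ± 0.52 (SE, edgeR adjusted p = 0.981) and ENSRNOT00000091552.1 one of 0.23 ± 0.42 (SE, edgeR adjusted p = 0.958), with an interval of -0.70 to 1.16. The CCI rats differed widely in the first, with a mean of 9.17 CPM and an SD of 3.91 CPM. Its Sham rats differed more for their level, with a mean of 0.651 CPM and an SD of 0.599 CPM, and they enter the SE through the shared fit. The fourth member in CPM had a narrower interval, with a log2 fold change of -0.07 ± 0.17 (SE) and an interval of -0.44 to 0.31.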

How the data were processed

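Each library is the lumbar cord of 1 rat (TRIzol RNA, NEBNext Ultra kit, per the labels' protocols, and HiSeq sequencing, per the series' design text). The deposited values are estimated counts per transcript, listed as whole numbers, so no rounding was needed. They sum to different totals per library. Multiples of 4 were over-represented between 8 and 40 (1.24 times the frequency of their neighbours), so the values were not taken as single reads and no counting intervals are given. The submitters' processing notes name rn4. That build was not checked against the versioned transcript identifiers, and no coordinates are given. The names of the aligner, the counter and the annotation are not stated in the labels or files used here. A design note on array normalization was set aside, since the files hold whole numbers.

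CPM was computed from library totals (Python 3.11.15, pandas 2.3.3). All 12 libraries were fitted by group with edgeR 4.0.16 in R 4.3.3: filterByExpr (minimum count 10, minimum total 15), TMM scaling, the quasi-likelihood F test and Benjamini-Hochberg adjustment over 24037 transcripts, with a threshold of 0.05. Each SE was obtained by dividing the log2 fold change by the root of its F value. Alternatives were DESeq2 1.42.0, limma voom 3.58.1, other scalings, filters and rule limits, a fit of 2 groups, a replicate block, and leaving out each library. The scripts were tested on simulated data. TMM-scaled counts of the highest and lowest library and the ratios without a library at 0, and the members' fold minimum in each ligated group, were added after seeing the data.

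The members and lists were chosen with earlier results of these data known. Members described singly were the 10 with the largest ratio, the 10 with the highest CPM, and the 5 highest and 5 lowest in CCI+THP against CCI, with transcripts next to the rule's limits. The members listed at 0 in a Sham library were singled out after their values were seen. Identifiers are printed for at most 2 members in each direction of a comparison. Gene lists and cell type markers prepared for the cord were not used, since no identifier could be paired with a symbol.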

Additional observations from a re-analysis of the deposited data

Results flagged for a closer look

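In 102 groups of 4 rats (33 members described singly, and the level over all members), 8 groups had 1 rat whose gap to the nearest other exceeded Dixon's critical value. Chance gives about 1 in 20 such groups. In Sham, replicate 1 was at 0.0911 CPM for the member with the second largest ratio (others 0.25 to 0.275 CPM) and at 57.6 CPM for the sixth member in CPM (others 51.9 to 52.4 CPM). Sham replicate 4 was at 49.0 CPM for the seventh member in CPM (others 51.9 to 52.3 CPM) and at 1.02 CPM for the third lowest member in CCI+THP against CCI (others 0.751 to 0.761 CPM). Sham replicate 3 was at 1.49 CPM for the fifth lowest member in that contrast (others 2.09 to 2.13 CPM). CCI replicate 2 was at 11.1 CPM for the member with the fourth largest ratio (others 4.18 to 5.23 CPM). In CCI+THP, replicate 3 was at 61.9 CPM for the tenth member in CPM (others 81.6 to 84.3 CPM), and replicate 2 was at 10.1 CPM for the third highest member against CCI (others 2.38 to 3.60 CPM).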

How the results depend on the processing

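The median log2 fold change of the members in CCI+THP against CCI ran from 0.009 (without CCI replicate 4) to 0.14 (without CCI replicate 2). The rule fixed its sign against Sham. The number of members called was 191 in CCI against Sham, 203 in CCI+THP against Sham and 2 in CCI+THP against CCI with DESeq2. It was 53 in CCI against Sham and 0 in CCI+THP against CCI when the 2 groups compared were fitted alone. With 1 library left out it ran from 58 to 95, from 85 to 127 and from 0 to 1. With a replicate block it was 84, 116 and 0, and the member called in CCI+THP against CCI had an edgeR adjusted p of 0.108. Replicate numbers did not pair the rats: deviations of same-numbered rats correlated at -0.0351 to 0.0311, and 4, 0 and 1 of 8 libraries correlated best with their own number. The number called by edgeR in CCI+THP against CCI was 0 among the 187 members with both ligated groups at the fold minimum, a choice made after seeing the data. DESeq2 called ENSRNOT00000005251.7, which is among the 187. The number of members was 69 with a fold minimum of 2, 378 with 1.2 and 125 with a mean CPM minimum of 5. It was 205 with TMM-scaled CPM, 204 with DESeq2 size factors and 274 with no minimum. A pseudocount of 1 CPM gave member levels of 0.67 in CCI and 0.74 in CCI+THP above Sham, against 0.81 and 0.88. The cause of these shifts was not tested.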
